A study of Mus musculus with 267 samples.

Results

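Chromatin marks, RNA polymerase II (Pol II) and transcription factor binding were followed around the genes of 3 Th2 chemokines, Ccl17, Ccl22 and Ccl24, in mouse bone marrow-derived macrophages (BMDMs) left untreated (basal) or given IL-4. The regions and peaks are those with a centre within 50 kb of the start of a member gene in mm10 with the GENCODE vM21 annotation. There were 922 of them among the 2382324 regions and peaks in all, 739 of these being peaks in 54 lists of factor binding sites. Ccl22 (ENSMUSG00000031779.3) lies at chr8:94745590-94751699 and Ccl17 (ENSMUSG00000031780.2) at chr8:94810453-94812036, both on the + strand with Cx3cl1 between them. Ccl24 (ENSMUSG00000004814.10) lies at chr5:135569937-135573049 on the - strand, with Ccl26 downstream of it.

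BMDMs were differentiated for 7 days with M-CSF from the marrow of adult female mice of the strains SPRET/EiJ (SPRET), PWK/PhJ (PWK), NOD/ShiLtJ (NOD), BALB/cJ (BALB) and C57BL/6J (C57). They were studied in the basal state and after 24 h with 20 ng/mL IL-4, and C57 cells also after 1 h and 6 h. A second design set Egr2flfl cells, in which both copies of Egr2 carry loxP sites, against LyzM-Cre Egr2 fl/fl cells (LyzMCreEgr2flfl here), in which Cre driven by the lysozyme M promoter is meant to delete Egr2 in myeloid cells, in the basal state and after 24 h with IL-4. EGR2 itself was not measured in the libraries of that design, so the deletion was not checked here. Most groups had 2 libraries, described as biological replicates. Pol II had 2 to 4 libraries in the strains, 1 library at 1 h in C57 and 1 library per group in the Egr2 design.

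CCL17 and CCL22 are ligands of the chemokine receptor CCR4, which is found on Th2 and regulatory T cells, and CCL24 (eotaxin-2) is a ligand of CCR3 on eosinophils. All 3 are known as products of macrophages and dendritic cells exposed to IL-4. IL-4 acts through the transcription factor STAT6. EGR2 and PPARg, the latter a nuclear receptor, are themselves induced by IL-4, whereas PU1 and CEBPb are factors that macrophages carry in the basal state. H3K27ac marks active promoters and enhancers, H3K4me3 marks active promoters, and H3K4me2 marks both kinds of element.

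The promoters of Ccl17 and Ccl22 were read from the RefSeq promoter table (GRCm38.p6), which matched 2 of the 3 genes, and end 1 base before the start used here. Capitals mark the letters that matched a searched motif on either strand. The motifs were TTCNNNNGAA for STAT6, GCGNGGG for EGR, GGAAGT for PU.1, TTGCNNAA for C/EBP and AGGTCA for PPAR (the hexamer that nuclear receptors bind), and the matches shown do not overlap.
Ccl17 promoter: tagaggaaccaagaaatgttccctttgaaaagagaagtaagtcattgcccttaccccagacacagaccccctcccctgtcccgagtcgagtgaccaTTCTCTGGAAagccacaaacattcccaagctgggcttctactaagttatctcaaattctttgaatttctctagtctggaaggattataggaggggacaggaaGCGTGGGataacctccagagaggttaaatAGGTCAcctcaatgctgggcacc
Ccl22 promoter: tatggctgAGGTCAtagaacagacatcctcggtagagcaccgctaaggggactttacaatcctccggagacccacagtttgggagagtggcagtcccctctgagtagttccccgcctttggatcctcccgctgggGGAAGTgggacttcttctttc
The Ccl17 sequence covers chr8:94810203-94810452 and holds a STAT6 motif at bases 97 to 106, an EGR motif at bases 199 to 205 and a PPAR motif at bases 228 to 233, counted from its first base. Among 32851 promoters cut to the same 250 bases, 5.85% held the STAT6 motif, 20.3% the EGR motif and 14% the PPAR motif. The Ccl22 sequence covers chr8:94745434-94745589 and holds a PPAR motif at bases 9 to 14 and a PU.1 motif at bases 136 to 141. Of the promoters cut to the same 156 bases, 8.85% held the PPAR motif and 11.1% the PU.1 motif. A match describes the letters only, and none of these matches was tested for binding.

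For 3 of the EGR2 binding sites that carry the results on EGR2 below, the reference sequence (mm10, + strand, the central 200 bases of the site) is shown, since they are the strongest site near Ccl17, the strongest site near Ccl24 and the site of the distal Ccl24 element whose H3K27ac rose in BALB cells.
Ccl17 -6.8 kb EGR2 site: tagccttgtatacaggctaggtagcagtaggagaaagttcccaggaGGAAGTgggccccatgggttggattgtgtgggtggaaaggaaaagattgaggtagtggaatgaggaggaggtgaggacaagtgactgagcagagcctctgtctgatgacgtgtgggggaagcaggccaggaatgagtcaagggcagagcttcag
Ccl24 -2.7 kb EGR2 site: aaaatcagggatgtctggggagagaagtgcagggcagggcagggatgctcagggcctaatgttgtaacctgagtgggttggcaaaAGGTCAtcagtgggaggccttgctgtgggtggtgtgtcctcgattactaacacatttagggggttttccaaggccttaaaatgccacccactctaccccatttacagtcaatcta
Ccl24 +21.3 kb EGR2 site: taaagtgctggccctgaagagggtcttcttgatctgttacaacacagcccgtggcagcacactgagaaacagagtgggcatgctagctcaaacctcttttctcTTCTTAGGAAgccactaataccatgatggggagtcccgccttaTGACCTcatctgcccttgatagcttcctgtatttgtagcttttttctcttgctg
They cover chr8:94803598-94803797, chr5:135575623-135575822 and chr5:135551622-135551821. The first holds a PU.1 motif at bases 47 to 52 and the second a PPAR motif at bases 86 to 91. The third holds a STAT6 motif at bases 104 to 113 and, on the other strand, a PPAR motif at bases 147 to 152. Among 30662 EGR2 sites cut to 200 bases, 32% held the PU.1 motif, 11.6% the PPAR motif and 6.62% the STAT6 motif. The EGR letters, present in 26.4% of those sites, are not in any of the 3 windows shown.

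Values are HOMER normalized tags, that is, reads per 10000000 reads of the library, over 1000 bases around the centre of an open chromatin region unless stated otherwise. Positions are given in kb from the start of the gene, negative upstream. Library totals ran from 4691644 to 29050468 reads, so 1 normalized tag stood for 0.469 to 2.91 reads, and values of a few tags rest on few reads. The share of reads that fell in the tabled regions differed between groups for H3K27ac, from 63.8% to 69.7% in the basal C57 libraries to 41.2% to 46.4% at 24 h in the time-course table, with the second 1 h library apart at 20.5% against 44% in the first. H3K27ac at the starts of the macrophage markers (Adgre1, Csf1r, Cd68, Itgam, Lyz2 and Mertk) summed to 555 to 2910 normalized tags per library, with all 6 starts tabled in every strain but SPRET, where Csf1r was missing. None of 3 T cell marker starts was tabled, and sums were 0 to 5.7 for mast cell, 0 to 75.8 for dendritic cell, 13.9 to 151 for B cell and 14.5 to 465 for neutrophil markers. In H3K4me3, where the macrophage starts summed to 1040 to 2280, the dendritic cell starts (Zbtb46, and Flt3 in C57) summed to 166 to 518, Kit, the mast cell start tabled in C57 alone, held at least 50.7, and the B cell and neutrophil starts summed to 0 to 63.3. The part of other cell types in the results was not tested. In these bulk samples fewer cells carrying a mark and less of the mark per cell cannot be told apart.

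Differences between IL-4 and basal libraries were tested on log2(normalized tags + 1) with limma over every region of a table, and a region is called here where the Benjamini-Hochberg adjusted p over that whole table was under 0.05. Folds are on that scale, which understates the change of low values. Regions from different strain tables were never tested against each other, and their values are given side by side. Where groups are said not to overlap, the share of all regions whose groups are apart was not counted. At 24 h, limma called 5 of 26 member regions in H3K27ac in BALB, 4 of them higher, against 2.26% of all regions of that table. It called 2 of 26 in Pol II in BALB, both higher, against 0.707% of all regions. In the fit without a replicate block no member region was called in either measure in the other strains. With the block, in Pol II of the strains whose replicate numbers were taken to pair the libraries from their correlations, the calls were 0 in C57, 5 in PWK and 3 in SPRET, and the called regions were higher. In H3K27ac, where the numbers were not taken to pair the libraries, the block gave 8 calls in C57, 6 in NOD, 10 in PWK and 8 in SPRET. The shares of all regions called with the block are not given here, so these counts cannot be set against a background. At Ccl17 -7.9 kb in C57, limma with the block gave an unadjusted p of 0.00819 and an adjusted p of 0.0247. Values so close arise only where many regions of the table have p-values as small. Without the block the shares of all regions called for H3K27ac and Pol II were 0.0% and 0.319% for C57, 0.0566% and 0.0% for NOD, 0.535% and 1.72% for PWK, and 1.19% and 1.05% for SPRET. At an unadjusted p under 0.05 these strains had 9 of 28, 6 of 29, 10 of 28 and 8 of 22 member regions in H3K27ac, in the order C57, NOD, PWK and SPRET, and 5, 3, 6 and 8 in Pol II. On the recovered reads, edgeR called 0, 0, 0 and 2 of them in H3K27ac and 0, 0, 1 and 0 in Pol II, and DESeq2 called 1, 0, 0 and 1 in H3K27ac and 1, 0, 1 and 2 in Pol II. The shares of all regions under the unadjusted limit, or called by edgeR or DESeq2, are not given here or for the fits below. Such counts of members therefore cannot be set against a background.

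In the fits without a replicate block, the distal elements and start of Ccl24 gave the changes called higher in BALB cells. Pol II at the start of Ccl24 (chr5:135572708-135573708 in BALB) was 8.94, 19.6 and 13.1 normalized tags in the basal BALB libraries and 72.5 and 78.6 at 24 h. Every IL-4 library was above every basal one, and the log2 fold was 2.42 ± 0.65 (SE, n = 3 and 2, limma adjusted p = 0.0321). Just past the 3′ end of the gene, at Ccl24 +4.4 kb (chr5:135568118-135569118), Pol II was 31.3, 54 and 20.8 in the basal and 164 and 201 in the IL-4 libraries. The groups did not overlap and the log2 fold was 2.43 ± 0.66 (limma adjusted p = 0.035). These 2 Pol II calls fell to 0 without the first 24 h library or without any 1 of the 3 basal libraries, to 1 without the second 24 h library, and to 0 under median-ratio scaling, with folds of 2.09 and 2.10 on the log2 scale. H3K4me3 at the same start was 10.2 and 11.3 in the basal and 37.2 and 51.2 in the IL-4 libraries, a log2 fold of 1.93 ± 0.33 that limma did not call (adjusted p = 0.773) and that edgeR and DESeq2 did.

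Pol II at the start of Ccl24 was also higher at 24 h than in the basal libraries of C57 and NOD without overlap. In C57 it was 1.87, 3.21, 6.43 and 3.04 in the basal and 30.7, 10.5 and 10.3 in the 24 h libraries, the first of which stood apart from the other 2 (log2 fold 1.87 ± 0.51, limma adjusted p = 0.121 in the time-course table). In NOD it was 5.19 and 7.53 in the basal and 18.7 and 20.9 in the IL-4 libraries (log2 fold 1.51 ± 0.47, adjusted p = 0.485). In PWK the values were 10.6, 2.10 and 1.52 against 11.5, 9.70 and 7.70, and in SPRET 6.77, 4.57 and 3.59 against 19.4, 13.4 and 6.46, so both groups overlapped. Both IL-4 libraries of BALB were above every library of the other 4 strains, values that were set side by side and not tested.

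At Ccl24 +4.4 kb, Pol II in C57 was 13.7, 7.22, 10.7 and 0 in the basal and 65.4, 29.1 and 16.7 in the 24 h libraries of the time-course table, without overlap (log2 fold 2.42 ± 0.72, limma adjusted p = 0.163). In NOD it was 14.9 and 26 against 40.7 and 36.4. In PWK, where the matched region is centred at +4.2 kb, it was 5.64, 0 and 3.79 against 13.7, 16.2 and 11.1. Both pairs of groups were apart, the PWK fold being 2.19 ± 0.63 on the log2 scale (adjusted p = 0.113). The PWK region was called once the replicate number was added as a block. No matched region was tabled in SPRET. H3K27ac at this element overlapped between the groups in BALB, with 198 and 229 in basal and 277 and 167 in IL-4 libraries, in C57, with 40.7 and 52.8 against 47.5 and 55.8, and in NOD, with 78.1 and 128 against 74.5 and 85.6. In PWK it was higher with IL-4 without overlap, from 10.3 and 18 to 24.9 and 42.

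**Figure D1:**
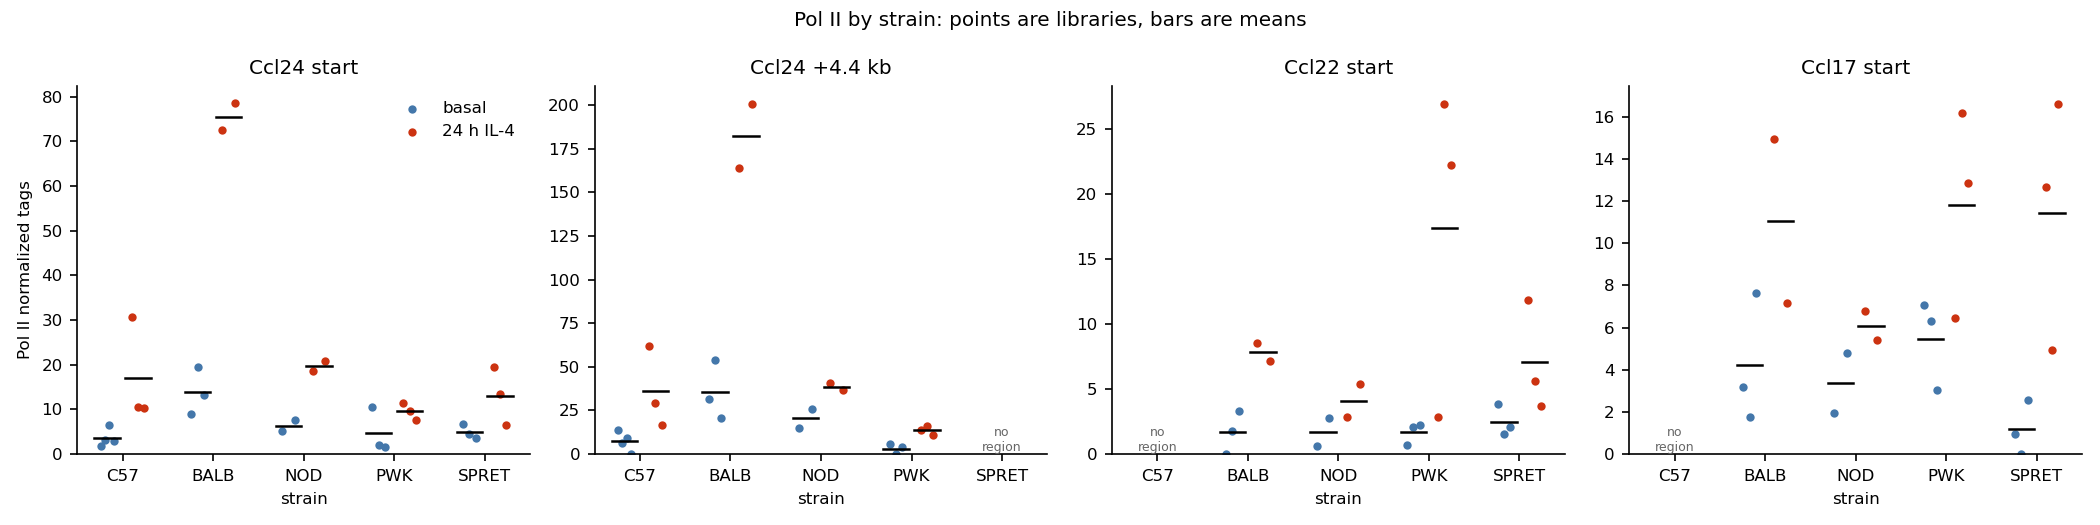
Pol II in normalized tags (linear axes from 0, a scale for each panel) at the starts of Ccl24, Ccl22 and Ccl17 and at Ccl24 +4.4 kb by strain, with each point a library, basal and 24 h IL-4 side by side, and bars for the means. The BALB IL-4 libraries at the Ccl24 start, 72.5 and 78.6 tags, sit above all libraries of the other strains, and "no region" marks strains whose table holds none there.

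H3K27ac rose at a distal element downstream of Ccl24, in the intergenic stretch between Ccl26 and Hip1. At Ccl24 +21.3 kb (chr5:135551280-135552280 in BALB) it was 6.61 and 14.9 in the basal and 69.3 and 43.4 in the IL-4 BALB libraries, a log2 fold of 2.34 ± 0.57 (n = 2 and 2, limma adjusted p = 0.004). The neighbouring region at +21.9 kb, which shares part of its tags, went from 3.67 and 10.1 to 58.0 and 42.9 (log2 fold 2.82, adjusted p = 0.000109). Further upstream regions called higher in BALB were Ccl24 -2.6 kb, from 3.67 and 5.96 to 20.3 and 24.8 (log2 fold 2.04 ± 0.57, adjusted p = 0.021), and Ccl24 -35.1 kb, from 0.73 and 0.60 to 18.1 and 10.5 (adjusted p = 0.000414). In BALB the regions at +21.9, -2.6 and -35.1 kb were tabled as open chromatin in the IL-4 cells only, so their rises are not independent of how they entered the table. No other strain had a matched region at -35.1 kb. The basal value at -35.1 kb rests on 2 reads, and the ratio of 20.4 has a 95% interval from 5.33 to 173 that covers counting error only. The share of reads in regions was 51.2% to 58.6% in the basal and 28.7% to 57.1% in the IL-4 BALB H3K27ac libraries, and all 5 calls were also made under median-ratio scaling, by edgeR and by DESeq2. The 5 H3K27ac calls of BALB became 1 without the first basal library and 3 without the second 24 h library.

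The same distal region was higher with IL-4 in all 5 strains without overlap, although limma without a replicate block called it only in BALB. It was named because of that call, so BALB does not count towards the agreement between strains. How many of all regions separate in all 5 strains was not counted, and the agreement is a description only. With the replicate number as a block, limma called it in C57, NOD, PWK and SPRET too (adjusted p = 0.0131, 0.00852, 0.015 and 9.11e-05). The shares of all regions called with the block are not given here. In C57 the unadjusted limma p with the block was 0.00389, which adjusts to 0.0131 only where many regions have p-values as small. The C57 call thus does little to set this region apart. H3K27ac at Ccl24 +21.3 kb was 4.75 and 2.85 in basal and 20.4 and 9.84 in 24 h C57 libraries (log2 fold 1.69, limma adjusted p = 0.184 in the strain table). In NOD it was 3.32 and 6.35 against 17.4 and 17.5 (log2 fold 1.71, adjusted p = 0.301), and in PWK 3.43 and 5.48 against 14.8 and 21. In SPRET it was 4.27 and 7.90 against 40.6 and 20.5 (log2 fold 2.12 ± 0.53, adjusted p = 0.0678), which edgeR called. Side by side, 1 basal BALB library lay above the lower 24 h C57 library, and both IL-4 libraries of BALB were above those of the other 4 strains.

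Pol II at Ccl24 +21.3 kb was 2.55, 4.74 and 8.75 in basal and 17.1 and 23.8 in IL-4 BALB libraries, which did not overlap (log2 fold 1.86, limma adjusted p = 0.258). In SPRET it was 0.97, 0 and 0.51 against 11.8, 3.53 and 3.69. The SPRET ratio of 13.4 rests on 2 basal reads, with a 95% interval from 3.32 to 117 for counting error alone. H3K4me2 went the same way as H3K27ac in C57 (14.7 and 16.2 to 36.4 and 20.5) and PWK (14.5 and 24.2 to 43.3 and 35.2). In BALB it was 41.8 and 43.7 in basal and 50.1 and 12.8 in IL-4 libraries, which overlapped, as the groups of NOD (19.1 and 31.3 against 29.9 and 21.6) and SPRET (31.5 and 31.9 against 32.3 and 15.1) did. Basal H3K4me2 at this region was thus highest in BALB.

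H3K27ac at the start of Ccl24 was higher with IL-4 without overlap in BALB (18.4 and 67.3 against 79.1 and 84.8) and SPRET (9.40 and 9.22 against 28.2 and 29.1). It overlapped in C57 (10.9 and 22.1 against 18.7 and 45.3), NOD (11.6 and 38.1 against 28.9 and 53.5) and PWK (1.72 and 10.2 against 9.43 and 28.6). H3K4me3 at the start was higher without overlap in C57 (1.46 and 4.39 against 10.4 and 12.5), NOD (6.41 and 9.83 against 10.2 and 18.2) and SPRET (3.40 and 7.08 against 15.6 and 17.5), as it was in BALB. In PWK it was 0.76 and 3.47 against 3.22 and 7.72. H3K4me2 at the start was lower with IL-4 without overlap in C57, from 47.4 and 50.7 to 44.1 and 25.6, and in BALB, from 62.7 and 85.5 to 56.4 and 42.5, where the median H3K4me2 difference over all regions was itself -0.69 and -0.63. It overlapped in NOD (41.8 and 55.7 against 45.2 and 39.4), PWK and SPRET, and was called in none. At Ccl24 -9.5 kb the H3K27ac groups overlapped in BALB, with 19.1 and 59.6 against 45.2 and 44.8, and in NOD, with 16.6 and 52.4 against 18.8 and 28.7. They did not overlap in C57, with 11.5 and 15.7 against 16.1 and 16.4, in SPRET, with 16.2 and 12.5 against 49.4 and 21.5, nor in PWK, with 3.43 and 9.40 against 10.1 and 26.7.

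**Figure D2:**
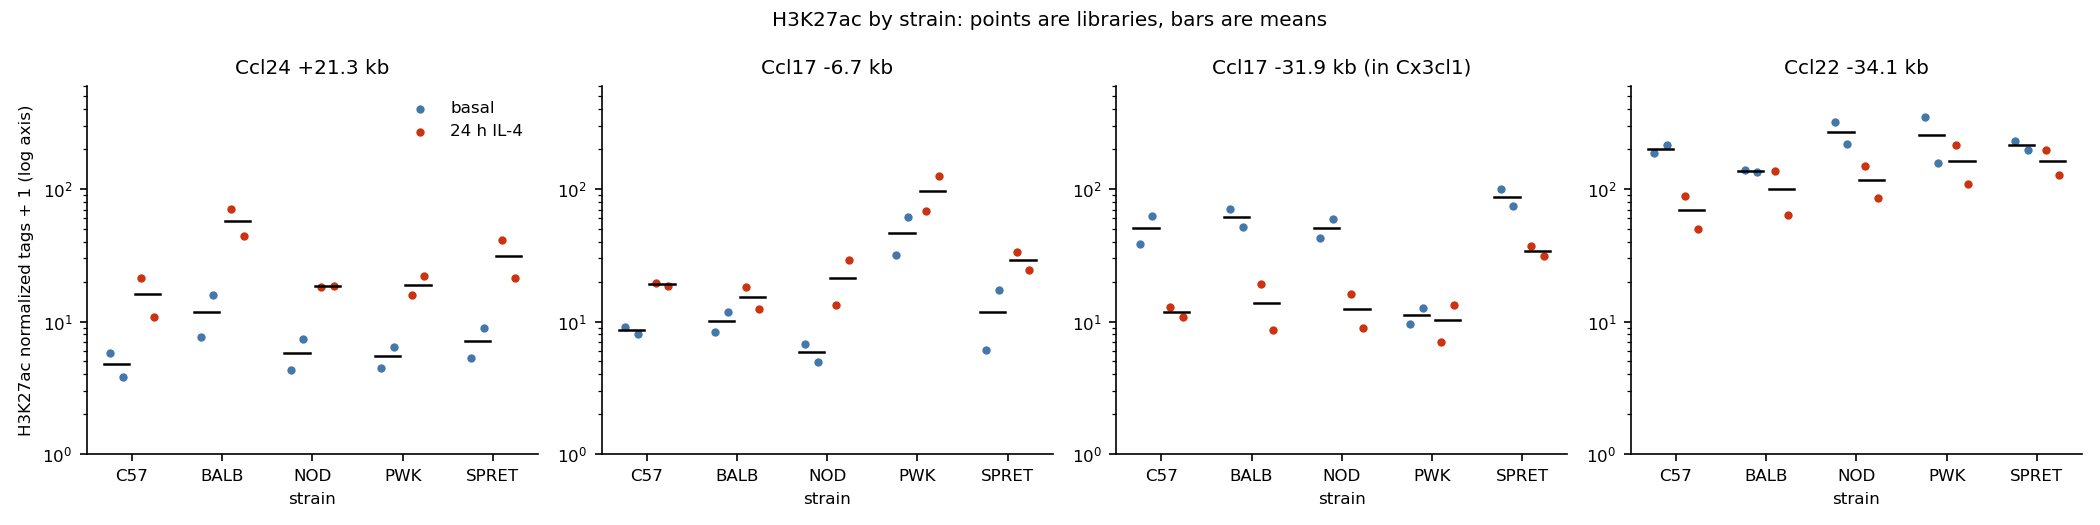
H3K27ac as normalized tags + 1 (log axis) at Ccl24 +21.3 kb, Ccl17 -6.7 kb, Ccl17 -31.9 kb and Ccl22 -34.1 kb by strain, with each point a library, basal and 24 h IL-4 side by side, and bars for the means. At Ccl24 +21.3 kb and Ccl17 -6.7 kb the IL-4 libraries lie above the basal ones in all 5 strains, and at Ccl17 -31.9 kb they lie below in all but PWK. In BALB, NOD and SPRET the region at Ccl17 -6.7 kb was tabled as open in the IL-4 cells only.

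Near Ccl17 and Ccl22 the only change in H3K27ac called at 24 h without a replicate block was a fall at Ccl17 -31.9 kb in BALB. With the block, rises were called as well, among them Ccl17 -5.7 kb in C57, BALB, PWK and SPRET and -6.7 kb in NOD, PWK and SPRET. Ccl17 -31.9 kb (chr8:94778100-94779100 in BALB), in intron 2 of Cx3cl1, went from 69.8 and 50.6 to 18.1 and 7.62 in BALB (log2 fold -2.24, limma adjusted p = 0.00903). The overlapping region at -31.1 kb went from 36.7 and 45.9 to 17.3 and 7.15 (log2 fold -1.78, adjusted p = 0.0611). In C57 the region at -31.9 kb was 37.3 and 62.0 in basal and 11.9 and 9.84 in 24 h libraries, in NOD 41.6 and 58.7 against 15.2 and 7.88, and in SPRET 99.2 and 73.8 against 36.2 and 30.2. IL-4 libraries were below basal ones without overlap in these 4 strains, while in PWK, which had the lowest basal level, 8.58 and 11.8 overlapped with 6.06 and 12.4. All folds here are relative to tables whose median over all regions was itself below 0, at -0.30 in BALB and -0.28 in C57 on the log2 scale, and the fall in BALB was -1.93 under median-ratio scaling.

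The strongest distal region of Ccl22 by H3K27ac in C57, Ccl22 -34.1 kb (chr8:94711002-94712002, intergenic), was 187 and 216 in basal and 88.3 and 48.6 in 24 h C57 libraries. NOD had 318 and 219.1 against 150 and 84.4, and SPRET 230 and 196.2 against 196 and 126, so these 3 strains were lower with IL-4 without overlap. BALB had 137 and 135 against 136 and 62.4, and PWK 350.2 and 157 against 216 and 109, which overlapped. Without the replicate block no strain was called at 24 h for this region, and with it C57 and NOD were called lower.

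A run of intergenic regions upstream of Ccl17 held more H3K27ac with IL-4 in most strains. At Ccl17 -7.9 kb (chr8:94802019-94803019) the C57 libraries were 11.5 and 9.27 in basal and 26.3 and 23.6 at 24 h, and those of PWK 49.8 and 50.1 against 106 and 98.3. BALB had 13.2 and 15.5 against 28.6 and 20.0, NOD 20.8 and 20.6 against 31.8 and 41.1, and SPRET 10.3 and 13.2 against 35.3 and 36.6. The groups did not overlap in any of the 5 strains, but the regions of this run were named after their values were seen, so that agreement is a description only. The share of all regions that separate this way was not counted. None of these differences was called without the replicate block, and with it C57 and SPRET were called. Basal and IL-4 levels were highest in PWK, at both this region and the neighbour at -8.5 kb, where PWK went from 37.8 and 40.7 to 94.3 and 91.6 and C57 from 12.9 and 7.13 to 15.3 and 18.4. At -7.9 kb in SPRET, and at -8.5 kb in BALB, NOD and PWK, the region was tabled as open in the IL-4 cells only. Rises there are not independent of how the regions entered the table.

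Ccl17 -6.7 kb (chr8:94803253-94804253) was likewise higher in all 5 strains without overlap, from 8.14 and 7.13 to 17.8 and 16.4 in C57, from 7.35 and 10.7 to 17.3 and 11.4 in BALB, and from 30.9 and 60.3 to 67.3 and 124 in PWK. NOD had 5.82 and 3.97 against 12.3 and 28.1, and SPRET 5.13 and 16.5 against 32.6 and 23.7. In BALB, NOD and SPRET the region at -6.7 kb was tabled as open chromatin in the IL-4 cells only. Its rises there are not independent of how it entered the table, and it was named after its values were seen. At Ccl17 -5.7 kb C57 went from 3.39 and 3.57 to 13.6 and 24.9 (log2 fold 2.12, limma adjusted p = 0.127 in the time-course table). BALB, NOD and SPRET did not overlap there either, whereas PWK, with 6.87 and 34.5 against 29.6 and 79.2, did. In C57 the region at -5.7 kb was open in the IL-4 cells only.

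Pol II at this run was higher with IL-4 without overlap at some regions in BALB, NOD, PWK and SPRET. At Ccl17 -6.7 kb it was 4.23, 4.90 and 2.27 in basal and 7.91, 21.6 and 17.1 in IL-4 PWK libraries (log2 fold 1.72 ± 0.49, limma adjusted p = 0.109). SPRET had 1.94, 1.52 and 1.03 against 6.76, 6.36 and 17.6 (log2 fold 2.05 ± 0.49, adjusted p = 0.0837), NOD 0 and 2.74 against 5.09 and 4.72, and BALB 1.92, 2.37 and 1.09 against 4.26 and 4.76. The C57 groups overlapped. In NOD the regions past the 2.5-fold limit used below were Ccl17 -8.5 kb, with 7.14 and 2.74 against 10.2 and 18.2 (log2 fold 1.41, adjusted p = 0.651), and -5.7 kb, with 1.95 and 2.05 against 5.09 and 11.5 (1.54, adjusted p = 0.595). At the start of Ccl17, SPRET Pol II was 0.97, 0 and 2.57 against 12.7, 4.95 and 16.6 (log2 fold 2.56 ± 0.59, adjusted p = 0.0738). Apart from C57 none of these groups overlapped. The regions at -6.7 kb in BALB, NOD and SPRET and at -8.5 kb in NOD were tabled as open in the IL-4 cells only. With the replicate number as a block, limma called 5 Pol II regions in PWK, among them Ccl17 -6.7 kb and -8.5 kb, the start of Ccl22 and Ccl24 +4.2 kb, and 3 in SPRET, the start of Ccl17, Ccl17 -6.7 kb and Ccl24 +21.3 kb, all higher.

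The start regions of Ccl17 and Ccl22 were tabled in BALB, NOD, PWK and SPRET, and neither C57 table held an open region within 1 kb of them. In BALB both starts, and in NOD that of Ccl17, were open in the IL-4 cells only. At the start of Ccl17 Pol II was 7.05, 6.29 and 3.03 in basal and 6.47, 16.2 and 12.8 in IL-4 PWK libraries, 3.19, 1.78 and 7.66 against 14.9 and 7.14 in BALB, and 1.95 and 4.79 against 6.78 and 5.40 in NOD. Only NOD did not overlap among these 3, at levels of a few tags. H3K27ac at that start was 1.72 and 3.92 against 8.75 and 29.6 in PWK, 16.2 and 22.4 against 66.1 and 19.4 in SPRET, 1.47 and 5.36 against 3.77 and 4.29 in BALB, and 0.83 and 0.79, which rest on 2 reads, against 1.45 and 11.3 in NOD. PWK and NOD did not overlap. H3K4me3, a promoter mark, was between 0 and 8.19 at the start of Ccl17 in every library of the 4 strains.

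At the start of Ccl22, which was the region with the largest Pol II fold in PWK among those called with the block, Pol II was 0.71, 2.10 and 2.27 in basal and 2.88, 26.9 and 22.2 in IL-4 libraries (log2 fold 2.39 ± 0.68, limma adjusted p = 0.106). The first IL-4 library lay near the basal ones. BALB had 0, 1.78 and 3.28 against 8.53 and 7.14, NOD 0.65 and 2.74 against 2.83 and 5.40, and SPRET 3.87, 1.52 and 2.05 against 11.8, 5.65 and 3.69. BALB and NOD did not overlap and SPRET did. H3K27ac at the start of Ccl22 was higher without overlap in BALB alone, from 4.41 and 2.98 to 14.3 and 6.67, and was 16.2 and 11.2 against 18.5 and 11.9 in SPRET.

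Some member regions were tabled or marked in few strains. Ccl17 +16.2 kb, in exon 6 of 9 of Ciapin1, held 17.2 and 22.7 H3K27ac tags in basal and 74.1 and 53.5 in IL-4 PWK libraries but 0.68 and 0.71 against 1.70 and 1.97 in C57, and was not tabled in the other strains. In PWK and C57 it was open in the IL-4 cells only. H3K4me2 there was 13.1 and 19.3 against 46.1 and 35.2 in PWK. Ccl24 -40.0 kb held 43.6 and 44.8 against 165 and 82.9 in SPRET (log2 fold 1.38, limma adjusted p = 0.111), 13.7 and 11.8 against 26.3 and 37.2 in PWK, and 1.36 and 0 against 5.94 and 1.97 in C57. SPRET levels were the highest at that region and PWK levels at Ciapin1, and no test between strains was made. The strongest distal region of Ccl17 by H3K27ac in C57, at +27.9 kb, is the shared promoter of Ciapin1 and Coq9 and held 222 and 155 in basal and 166 and 91.2 in 24 h C57 libraries.

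Counted by size, with means of normalized tags + 1 at least 2.5-fold apart and at least 16 tags (8 for Pol II) in either group, H3K27ac was higher at 3 and lower at 2 of the 26 member regions in BALB, 17 of which reached the minimum, against 7.97% of all its regions in either direction. The counts were 2 higher and 2 lower of 29 in NOD (8.38% of all regions), 6 and 0 of 28 in PWK (6.12%), 4 and 1 of 22 in SPRET (3.58%), and 1 and 3 of 33 in the C57 time course (10.9%), with 15, 20, 16 and 13 that reached the minimum. Pol II was higher at 8 of 26 regions in BALB, 3 of 29 in NOD and 3 of 28 in PWK. It was higher at 3 of 22 in SPRET and 2 of 33 in the time course, and lower at 0 in each of these tables. Over all regions 6.84%, 3.6%, 3.59%, 2.34% and 3.34% passed in either direction, in that order. Those that were higher numbered 3194 of 54022, 1619 of 68932, 1601 of 60175, 843 of 54755 and 1397 of 77955. Only Ccl24 +21.3 kb and +21.9 kb passed in both H3K27ac and Pol II, in BALB. This count has no test, and the minimum was reached by some regions through their IL-4 libraries alone.

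Over the members, the median log2 difference in H3K27ac was 0.31 for C57, 0.37 for BALB, 0.49 for NOD, 0.65 for SPRET and 0.96 for PWK, where all regions had medians of -0.28, -0.30, -0.20, -0.09 and -0.18 in that order. For Pol II the members' medians were 0.17, 0.88, 0.75, 0.57 and 0.56 in C57, BALB, NOD, SPRET and PWK, beside -0.03, 0.32, -0.02, -0.10 and -0.03 over all regions. The C57 median was the lowest, and its tables hold no region at the starts of Ccl17 and Ccl22. Without the replicate block H3K4me2 and H3K4me3 gave 0 calls among the members in any strain. For H3K4me2 limma called 0.236% of all regions in C57, 0.0111% in BALB, 0.189% in NOD, 0.314% in PWK and 0.0% in SPRET, and for H3K4me3 0.0%, 0.0%, 0.0203%, 0.0349% and 0.0%. At an unadjusted p under 0.05 these marks had 10, 0, 3, 5 and 7 and 6, 5, 2, 1 and 2 member regions in the order C57, BALB, NOD, PWK and SPRET. The share of all regions under that limit is not given here. For both marks edgeR and DESeq2 called 0 member regions in every strain, except the start of Ccl24 in H3K4me3 in BALB given above. Without 1 library, limma called 14 in H3K4me2 in C57 (first 24 h library), 13 in BALB (first 24 h library), 8 in NOD (first basal library) and 2 in SPRET (first basal library).

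In the C57 time course, which holds 33 member regions, the called changes were early falls in H3K27ac near Ccl17 and Ccl22. At 1 h limma called 3 of the 33 member regions, all lower, where 9.72% of all regions were called. Of those 7580 calls over all regions, 6515 were lower. The members' count and direction at 1 h were thus near those of all regions. At 6 h it called 3, all lower (5.13% of all regions), where 1919 of the 3997 calls over all regions were lower. At 24 h it called 0 (1.45%), where 8 member regions were under an unadjusted p of 0.05. On recovered reads edgeR called 3, 2 and 1 of them and DESeq2 1, 2 and 0 at 1 h, 6 h and 24 h, and limma called 2 at 24 h without the first 1 h library and 1 without the second. At Ccl17 -31.9 kb (chr8:94778194-94779194) H3K27ac was 37.3 and 62.0 in basal, 0.77 and 13.4 at 1 h, 2.31 and 4.87 at 6 h and 11.9 and 9.84 at 24 h. The log2 fold was -3.28 at 1 h (adjusted p = 0.0204) and -3.48 at 6 h (adjusted p = 0.0155), so the values were lowest at the early times and remained below basal at 24 h. Ccl17 -31.1 kb fell from 31.9 and 35.7 to 0 and 5.16 at 1 h (log2 fold -3.81, adjusted p = 0.0127) and was 2.31 and 6.69 at 6 h (-2.78, adjusted p = 0.0394) and 3.40 and 3.28 at 24 h. Ccl22 -34.1 kb fell from 187 and 216 to 47.2 and 44.4 at 1 h (log2 fold -2.11, adjusted p = 0.0269) and was 75.5 and 57.2 at 6 h.

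Ccl22 +30.9 kb, in intron 1 of Cx3cl1, was called lower at 6 h, from 8.82 and 9.27 to 0 and 1.83 (log2 fold -2.58, limma adjusted p = 0.0395). The 6 h value rests on 3 reads, and the ratio of 0.113 has a 95% interval from 0.0219 to 0.368 for counting error alone. The 1 h calls fell to 0 without the second basal library and to 2 without the first. Those at 6 h fell to 0 without either 6 h library or the second basal library and to 1 without the first basal library. Under median-ratio scaling the 1 h and 6 h calls were 0, with the folds still below 0 (-2.52, -3.09 and -1.31 at 1 h for the 3 regions named above). Over all regions of the table the median log2 difference was -0.63 at 1 h and -0.14 at 6 h, and the second 1 h library with its lower share of reads in regions belongs to the first of these. Without the first 1 h library, and without the second, limma called 3 member regions at 1 h.

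**Figure D3:**
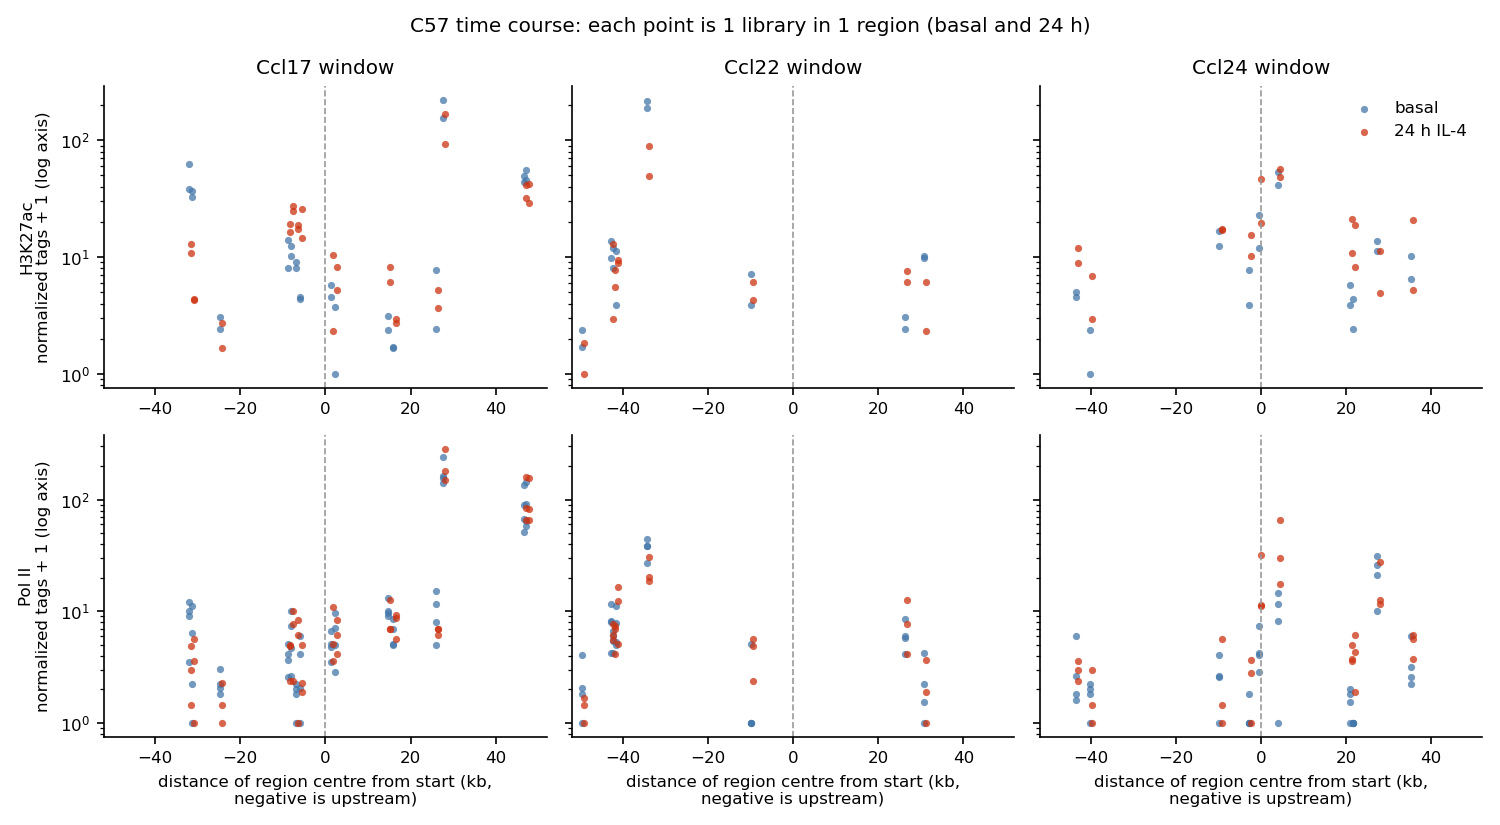
H3K27ac (top) and Pol II (bottom) as normalized tags + 1 (log axes) in basal and 24 h C57 libraries of the time course, for every member region by the distance of its centre from the gene start in kb, with each point a library in a region. Basal H3K27ac lies above the 24 h values at -31.9 kb of Ccl17 and at -34.1 kb of Ccl22, and 24 h Pol II lies above basal at the Ccl24 start and +4.4 kb.

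The run upstream of Ccl17 was below basal at 1 h without overlap in the same libraries, with log2 folds of -0.81, -1.10, -0.89 and -0.77 at -8.5, -7.9, -6.7 and -5.7 kb, differences near the median of -0.63 over all regions of the table, and none was called. Near Ccl24, H3K27ac at Ccl24 +21.3 kb was 4.75 and 2.85 in basal, 6.96 and 10.3 at 1 h, 6.93 and 6.09 at 6 h and 20.4 and 9.84 at 24 h. At +21.9 kb it was 3.39 and 1.43, then 7.73 and 12.1, 10.0 and 7.91, and 17.8 and 7.22. Both regions were above basal at every later time without overlap. Limma without a replicate block called none of these differences, while DESeq2 called +21.9 kb at 1 h and limma with the block called it at 1 h and 24 h. Pol II at the start of Ccl24 was 1.02 at 1 h, which rests on 2 reads, and 6.02 and 8.78 at 6 h, before the 24 h values given above. At Ccl24 +4.4 kb it was 8.12 at 1 h and 13.7 and 18 at 6 h. Pol II calls among the members were 0 at 1 h, 6 h and 24 h, where 0.0911%, 0.566% and 0.677% of all regions were called, with 3, 0 and 6 member regions at an unadjusted p under 0.05, 0 by edgeR at each time and 0, 0 and 2 by DESeq2. At 24 h DESeq2 called Ccl24 +4.4 kb and the start of Ccl24 (log2 fold 2.23 ± 0.68, DESeq2 adjusted p = 0.0438 at the start). The starts of 3 genes followed the H3K27ac of the Ccl24 start most closely over the 8 time-course libraries among 9438 gene starts, Kynu (Pearson r = 0.95), Rhoh (0.88) and S100a5 (0.85), a description over 8 libraries of unequal depth.

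EGR2 binding in C57 cells was tabled at 13 member sites, 6 near Ccl17, 3 near Ccl22 and 4 near Ccl24, among 30675 sites. The site at Ccl24 -2.7 kb (chr5:135575595-135575850), whose sequence is shown above, was strongest, with 39.3 and 128 normalized tags in basal, 28.9 and 114 at 1 h, 134 and 232 at 6 h and 167 and 154 at 24 h. Every 6 h and 24 h library was above both basal ones, with a log2 fold of 1.16 ± 0.73 at 24 h (0.51 under median-ratio scaling). The site at the start of Ccl24 had 53.9 and 40.3 in basal, 37 and 88.7 at 1 h, 80.3 and 147 at 6 h and 143 and 120.0 at 24 h (log2 fold 1.47 ± 0.67, or 0.82 under median-ratio scaling). At Ccl24 +21.3 kb, a weaker site, values were 4.21 and 9.40, then 2.71 and 33.8, 8.73 and 50.4, and 27.4 and 28.8 (log2 fold 1.98 ± 1.02 at 24 h, or 1.36 under median-ratio scaling). The first 1 h library was lower than the second at all 3 sites, and the share of its reads in EGR2 sites was 5.38% against 13.1%.

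The EGR2 site at Ccl17 -6.8 kb had 42.2 and 49.7 in basal, 5.42 and 51.1 at 1 h, 34.9 and 78.4 at 6 h and 79.9 and 68.2 at 24 h (log2 fold 0.68 ± 0.83, or 0.03 under median-ratio scaling). The site at Ccl22 +26.6 kb, at the start of Cx3cl1, had 65.6 and 65.8 in basal, 20.8 and 73.3 at 1 h, 62.9 and 97.3 at 6 h and 147 and 72.0 at 24 h (log2 fold 0.64 ± 0.71), a difference that became -0.01 under median-ratio scaling. At the start of Ccl22 the site was weak, with 7.49 and 6.71 in basal and 16.6 and 13.4 at 24 h. The 24 h and basal groups of all 3 sites were apart. No EGR2 site was called at 1 h, 6 h or 24 h by limma, among the members or over the table (0.0%, 0.0% and 0.0%), with an adjusted p of 0.838 for each site at 24 h named here. At an unadjusted p under 0.05 the members gave 0, 0 and 1, the last being the start of Ccl24, and count tests were not run on this table. The members' medians were -0.61, 0.65 and 0.96 on the log2 scale at 1 h, 6 h and 24 h, beside -0.59, 0.17 and 0.66 over all sites, so the members' median lay close to that of all sites at 1 h and above it at 6 h and 24 h.

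**Figure D4:**
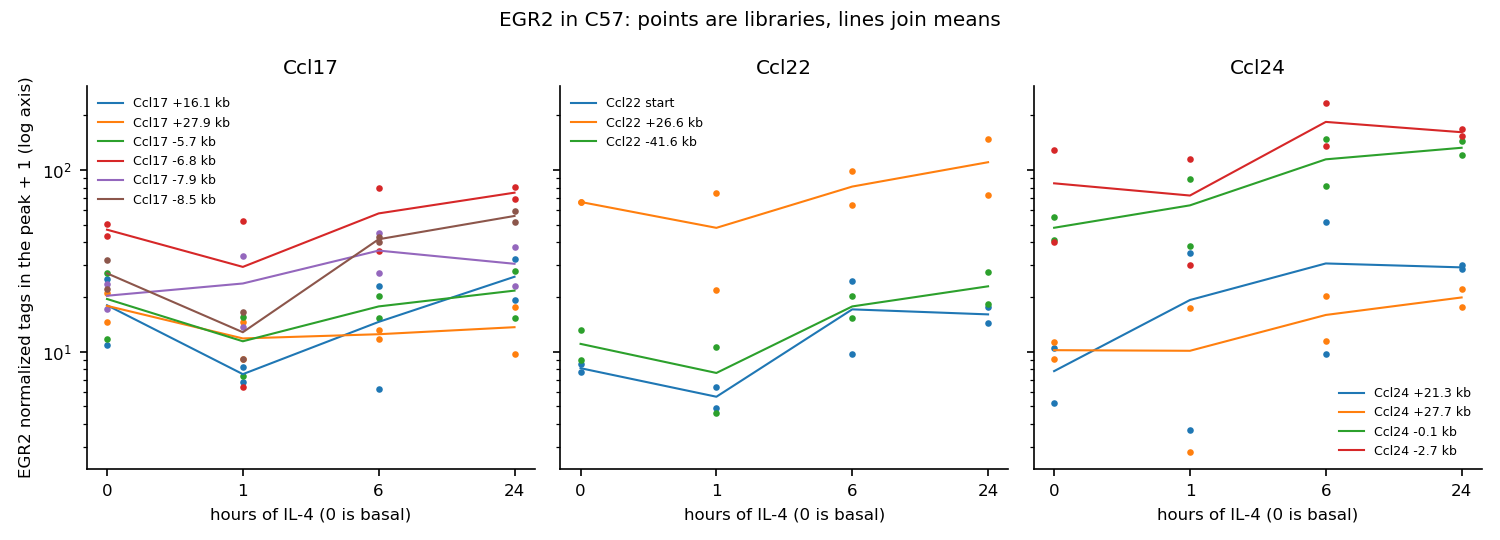
EGR2 normalized tags in the peak + 1 (log axis) at the 13 member sites in C57 BMDMs, in basal (0 h) and after 1 h, 6 h and 24 h with IL-4, with each point a library and lines joining the means. The site at Ccl24 -2.7 kb is the highest at 6 h, with 134 and 232 tags.

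The tables of Egr2flfl and LyzMCreEgr2flfl cells hold 2 member regions of 4677, at Ccl24 +21.3 kb and Ccl22 -41.6 kb. Their regions are centred on EGR2 peaks that the authors took as induced by 24 h of IL-4, so the shares of all regions called refer to such peaks and not to open chromatin at large. At Ccl24 +21.3 kb (chr5:135551221-135552221) H3K27ac was 5.11 and 1.36 in basal and 7.04 and 8.35 in IL-4 Egr2flfl cells, and 0 and 3.36 against 27 and 8.71 in LyzMCreEgr2flfl cells. The IL-4 libraries of both genotypes were above their basal ones, and the second IL-4 library of LyzMCreEgr2flfl cells lay close to those of Egr2flfl cells. The IL-4 response was called in LyzMCreEgr2flfl cells (log2 fold 2.98 ± 0.74, limma adjusted p = 0.0082, with 18.5% of all regions called) and not in Egr2flfl cells (1.19 ± 0.74, adjusted p = 0.256, 28.1% called), where it was 0.76 under median-ratio scaling. The call was lost without the first IL-4 or the first basal LyzMCreEgr2flfl library. The difference between the responses was 1.79 ± 1.04 (adjusted p = 0.492, 0.0% called) and that between the genotypes at 24 h 0.93 ± 0.74 (adjusted p = 0.396, 24.7% called), and neither was called. Over all regions of the table the median log2 difference between genotypes at 24 h was -0.50.

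STAT6 at Ccl24 +21.3 kb, over 300 bases (chr5:135551571-135551871), was 3.09 and 0 in basal and 14.9 and 10.6 in IL-4 Egr2flfl cells, and 2.23 and 1.84 against 11.3 and 7.89 in LyzMCreEgr2flfl cells. Both genotypes were higher with IL-4 without overlap. The response was called in Egr2flfl cells (log2 fold 2.75 ± 0.76, limma adjusted p = 0.0197, 11.8% of all regions called) and not in LyzMCreEgr2flfl cells (1.79 ± 0.76, adjusted p = 0.356, 1.2% called). The Egr2flfl basal value rests on 3 reads, with a ratio of 7.47 and a 95% interval from 2.27 to 38.8 for counting error alone. The call was lost without either IL-4 library or the second basal library of Egr2flfl cells, and by DESeq2 and median-ratio scaling. The genotypes at 24 h differed by -0.38 ± 0.76 (adjusted p = 0.799, 0.0214% called), a sign that turned under both of those settings, and the responses by -0.96 ± 1.08 (adjusted p = 0.825, 0.0% called).

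No difference between genotypes at 24 h was called by limma at the 2 regions for H3K4me2, PPARg, PU1 or CEBPb, for which 9.09%, 0.0%, 9.45% and 8.25% of all regions were called, and 0, 0, 1 and 0 of the 2 were under an unadjusted p of 0.05. PPARg at Ccl24 +21.3 kb was 0 in all 4 basal libraries, 6.14 and 4.73 in IL-4 Egr2flfl and 13.9 and 0 in IL-4 LyzMCreEgr2flfl cells. PU1 there was 20.4 and 30.8 in basal and 36 and 27.8 in IL-4 Egr2flfl cells, and 19.3 and 29.3 against 43.4 and 32.8 in LyzMCreEgr2flfl cells. CEBPb was 3.26 and 6.53 against 13.9 and 9.75, and 1.45 and 3.09 against 7.46 and 5.36. PU1 was thus present before IL-4 in both genotypes, and CEBPb was higher with IL-4 in both without overlap. H3K4me2 was 25.2 and 24.5 against 32.2 and 33.8 in Egr2flfl and 19.7 and 28.5 against 35.4 and 47.7 in LyzMCreEgr2flfl cells. Pol II, with 1 library a group, was 0 and 2.55 in Egr2flfl and 0.65 and 3.99 in LyzMCreEgr2flfl cells before and after IL-4, and has no replicate check. At Ccl22 -41.6 kb (chr8:94703495-94704495) H3K27ac stayed between 2.08 and 6.42 and H3K4me2 between 39.7 and 71.6 in every library.

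The factor lists placed 73 distinct binding sites near the 3 genes, 26 near Ccl17, 17 near Ccl22 and 30 near Ccl24, each list holding the reproducible peaks of 1 group. Of these, 39 were bound by 2 or more of STAT6, EGR2, PPARg, PU1 and CEBPb, 10 by all 5, and 19 appeared in 1 list only. The start of Ccl24 (chr5:135572968-135573427) was in 46 of 54 lists, the most of any site. STAT6 and PU1 were listed there in all 5 strains both in basal and at 24 h. EGR2 went from BALB and NOD to all 5, PPARg from NOD alone to all 5, and CEBPb from the 4 strains other than BALB to all 5.

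Start regions of the other genes were bound by fewer factors. At the start of Ccl17, PPARg was listed in all 5 strains and STAT6 in C57, NOD, PWK and SPRET at 24 h, and neither in any strain in basal. EGR2 and CEBPb were listed there in no strain, and PU1 in SPRET in basal and in C57, BALB and SPRET at 24 h. At the start of Ccl22 PU1 was listed in all strains at both times, STAT6 in SPRET in basal and in C57, PWK and SPRET at 24 h, and EGR2 in BALB and NOD in basal and in C57, BALB and SPRET at 24 h, with no PPARg or CEBPb.

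Among distal sites, Ccl24 -9.5 kb was in 36 lists, with STAT6, PU1 and CEBPb in all 5 strains at both times and no EGR2 in any. Ccl24 -2.6 kb gained CEBPb, from 0 strains in basal to 5 at 24 h, and PPARg, from 0 to 4, while EGR2 went from 4 to 5. Ccl24 +21.3 kb gained STAT6, from C57 and SPRET in basal to all 5 strains, EGR2, from BALB to C57, BALB and SPRET, and CEBPb, from 0 to BALB, NOD and PWK. PU1 was listed there in all 5 strains before and after IL-4, and STAT6 was listed in C57 at 1 h and 6 h as well. Ccl22 +26.5 kb, at the start of Cx3cl1, was the only site with EGR2 in all 5 strains at both times, and had no STAT6 or PPARg.

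The run upstream of Ccl17 was bound by different factors along its length. At Ccl17 -7.9 kb STAT6 went from 2 to 5 strains and PPARg from 1 to 5, with EGR2 in BALB at both times and in C57 at 6 h. At -8.6 kb EGR2 went from 2 to 5, and at -6.8 kb from 4 to 5, with CEBPb in no strain at either site. PU1 was listed at -8.6, -7.9 and -5.7 kb in all 5 strains at both times. Lists of different groups hold different numbers of peaks, and a missing peak does not show that the factor was absent.

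**Figure D5:**
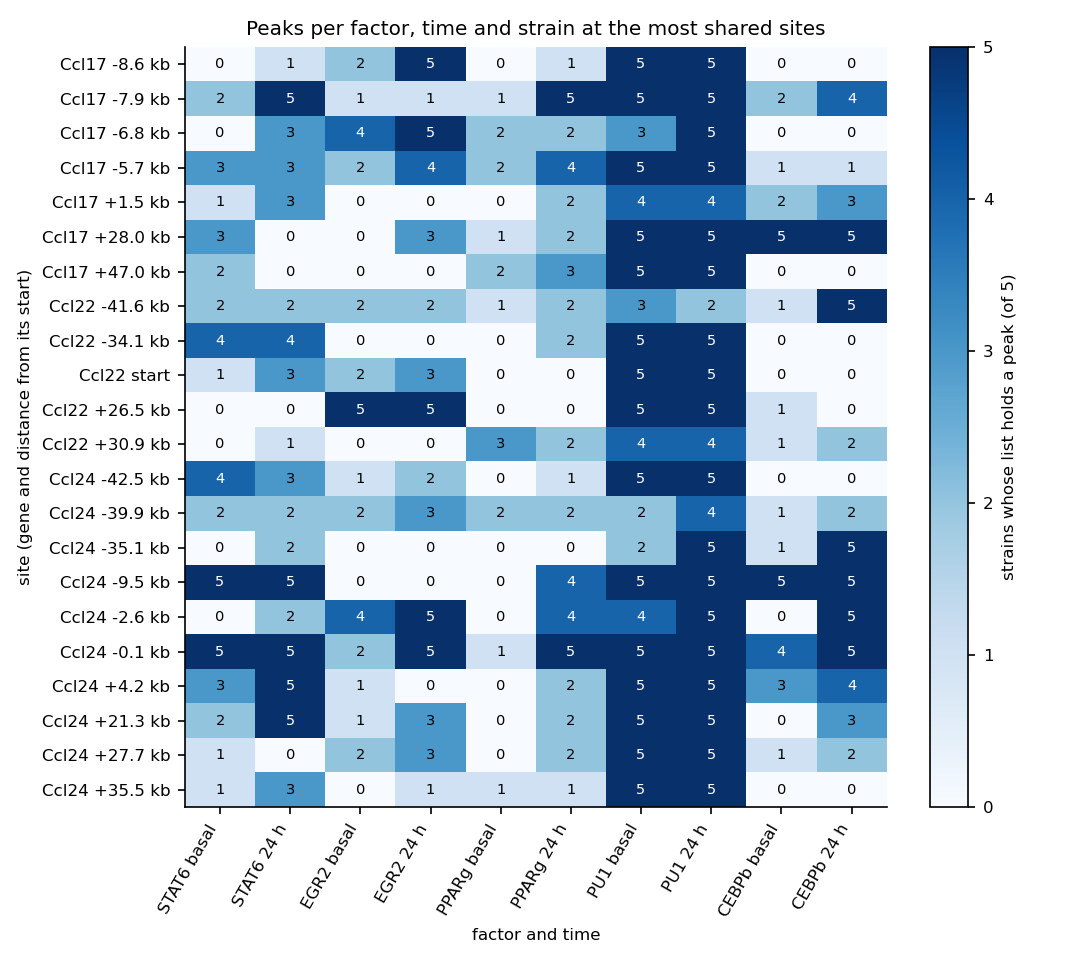
Number of strains (0 to 5) with a listed peak of each factor in basal and 24 h IL-4 BMDMs, at the 22 sites near the 3 genes that appear in 17 or more lists. PU1 is listed in most strains at both times, and at the start of Ccl24 PPARg goes from 1 strain to 5.

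Of the member peaks at 24 h, 53.7% of 67 STAT6 peaks had no basal peak of the same strain, against 49.5% of all STAT6 peaks in the lists. The shares were 57.1% of 70 against 54.8% for EGR2, 80.5% of 77 against 72.1% for PPARg, 16.2% of 154 against 15.7% for PU1 and 52.5% of 61 against 45.7% for CEBPb. The members' shares were thus near those of the whole lists. Member peaks numbered 43 in basal for STAT6, 36 for EGR2, 22 for PPARg, 152 for PU1 and 32 for CEBPb.

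The start regions of the other chemokines and their receptors, 33 ligands of which 10 to 17 were tabled and 21 receptors of which 4 to 7 were, showed few calls at 24 h. Among the ligands, limma called 0 in H3K27ac in any strain, and Pol II was higher at Ccl7, a monocyte chemoattractant, in BALB (log2 fold 3.63 ± 0.65, adjusted p = 2.9e-05) and at 24 h in the C57 time course (3.02 ± 0.59, adjusted p = 0.0252), and at Ccl2, the main ligand of CCR2, in SPRET (2.28 ± 0.46, adjusted p = 0.045). Among the receptors, Cx3cr1, the receptor of the chemokine whose gene lies between Ccl22 and Ccl17, was lower in H3K27ac in BALB (-3.63 ± 0.63, adjusted p = 4.14e-06), in PWK (-3.88 ± 0.46, adjusted p = 0.00201) and in the time course at 1 h, 6 h and 24 h (-3.27, -3.95 and -3.48). Its Pol II was lower in BALB, C57 and PWK and at 6 h and 24 h of the time course, from -2.60 in BALB to -4.03 at 6 h, and by -4.50 at 1 h, where Pol II has 1 library whose spread was taken from the other groups. Cxcr3 was lower in H3K27ac in BALB (-2.54) and at each time (-2.11, -2.95 and -2.59), and in Pol II in PWK (-1.90). In the time course Ccl7 Pol II was also higher at 6 h (4.06), and H3K27ac was lower at 1 h at Cxcl2 (-2.62), Pf4 (-2.67) and the receptor gene Cxcr4 (-2.15). No receptor start was called higher, and in NOD no start of either list was called in any mark.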

How the data were processed

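ChIP-seq data of mouse BMDMs for Pol II, the factors STAT6, EGR2, PPARg, PU1 and CEBPb and the marks H3K27ac, H3K4me3 and H3K4me2 were used, from 267 samples, of which 155 had per-library values, 100 were used only through peak lists and 12 input libraries were not used. Histone marks, Pol II, PU1 and CEBPb came from formaldehyde-fixed cells and STAT6, PPARg and EGR2 from cells fixed with DSG as well. Per the authors' methods, reads were aligned with Bowtie2 to strain genomes made with MMARGE, shifted to mm10 and counted with HOMER.

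The 9 deposited tables hold signal, as tags scaled by the authors to 10000000 reads per library, over 1000 bases around open chromatin centres, or for the EGR2 time course in the peak itself. In the Egr2 design the regions are centred on EGR2 peaks induced by 24 h of IL-4, with 1000 bases for histone marks and Pol II and 300 for factors. The 54 deposited peak lists hold a score per peak and were made from replicates with IDR, 36 as merged peaks and 18 in the peak caller's format (PPARg, and EGR2 outside C57). These values were not raw counts, but 100% of 7268918 values, all those of the 9 tables with a matched sample, gave whole reads within 0.1 read. Another 4 value columns matched no sample and were left out.

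Tests used limma 3.58.1 (R 4.3.3) on log2(tags + 1), all groups of a table and mark in 1 fit, adjusted over the whole table. edgeR 4.0.16 and DESeq2 1.42.0 ran on recovered reads as alternatives, beside another pseudocount, scaling, filters, fold, window, replicate block and leaving out each library. Scripts used Python 3.11.15, pandas 2.3.3, numpy 2.4.6, scipy 1.17.1 and matplotlib 3.10.9, and the fits were tested on simulated data. Intervals of read ratios are exact and cover counting error only. Nothing beyond the labels says how replicates were kept apart, so p-values measure the spread between these libraries.

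The members and lists were chosen with earlier results of these data known. Regions named are the start of each gene, its strongest distal region in C57, those called in H3K27ac or Pol II, and the strongest EGR2 sites. Ccl17 -8.5, -7.9, -6.7, -5.7 and +16.2 kb and Ccl24 -40.0 and -9.5 kb were named after their values were seen. Regions of different tables were matched with centres within 500 bp. Each strain's table holds regions open in its basal or its IL-4 cells, and some were open in the IL-4 cells only.

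Same-numbered libraries were compared by the correlation of their deviations from group means, which ran from -0.073 to 0.492 over 71 pairs of groups. In all 4 pairs of groups with 3 numbers, Pol II in both C57 tables, PWK and SPRET, every correlation was over 0.1, so the numbers were taken to pair those libraries. No label states a pairing. Groups that shared fewer numbers were not taken as paired, although H3K27ac of the strains gave 0.261 in SPRET to 0.492 in NOD. With the replicate block the Pol II calls were 5 in PWK and 3 in SPRET.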

Additional observations from a re-analysis of the deposited data

Results flagged for a closer look

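Pol II at Ccl24 -2.6 kb in the basal C57 libraries was 0, 0.80, 0 and 0 normalized tags, so 1 library stood apart from the other 3 with a gap of 1.0 of the whole range. The value rests on 1 read. It was the only one of 31 groups of 4 to 10 samples in which a library stood apart by Dixon's 95% limit, which chance passes in about 1 in 20 groups.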

How the results depend on the processing

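Of the comparison counts and shares, 509 values stayed within the limits of the main value under an alternative and 97 moved, and the cause was not tested. With the replicate block limma called 8 member regions in H3K27ac and 4 in H3K4me3 in C57, 0 in Pol II and 1 in H3K4me3 in BALB, 6 in H3K27ac and 1 in Pol II in NOD, 10, 5, 2 and 3 in H3K27ac, Pol II, H3K4me2 and H3K4me3 in PWK, 8, 3 and 5 in H3K27ac, Pol II and H3K4me2 in SPRET, and 5, 5 and 5 in time-course H3K27ac at 1 h, 6 h and 24 h. Outside Pol II of C57, PWK and SPRET the numbers were not taken to pair the libraries. The shares of all regions called with the block are not given, so the block counts have no background beside them. Same-numbered H3K27ac libraries of the strains did correlate, at 0.261 in SPRET to 0.492 in NOD, and the labels do not settle whether they are paired. By DESeq2 the calls were 1 in H3K27ac and 1 in Pol II in C57, 1 in H3K4me3 in BALB, 1 in Pol II in PWK, 1 and 2 in H3K27ac and Pol II in SPRET, 1 in H3K27ac at 1 h and 2 in Pol II at 24 h in the time course, and 0 for STAT6 in Egr2flfl cells. By edgeR they were 1 in Pol II and 1 in H3K4me3 in BALB, 1 in Pol II in PWK, 2 in H3K27ac in SPRET and 1 in time-course H3K27ac at 24 h. A filter on low values gave 1 in H3K4me3 in BALB, 1 in H3K27ac in SPRET and 1 in H3K27ac at 6 h. Median-ratio scaling gave 0 in Pol II in BALB, 0 and 0 in H3K27ac at 1 h and 6 h and 0 for STAT6 in Egr2flfl cells, and 5 and 10 regions past the 2.5-fold rule in BALB Pol II and PWK H3K27ac. A pseudocount of 5 gave 1 call in H3K27ac at 24 h in the time course, and past the fold rule 4 for BALB Pol II, 2 and 0 for H3K27ac and Pol II of NOD, and 2 and 1 for those of PWK as of SPRET. A fold of 2 gave 12 and 6 in PWK and 9 and 5 in SPRET, no filter gave 9 and 6 in the time course, and a 25 kb window gave 3 and 5 in BALB, 2 in NOD, 3 in SPRET and 1 in the time course. Among peaks scored above the median of their list, 68.6% of CEBPb peaks at 24 h had no basal peak.

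The signs that turned were EGR2 at Ccl22 +26.6 kb (-0.01 under median-ratio scaling), and at Ccl24 +21.3 kb the STAT6 genotype difference at 24 h (0.36 by DESeq2, 0.32 under median-ratio scaling) and the STAT6 difference of responses (0.06 without the second basal Egr2flfl library, with a range from -1.98 to 0.06 over the libraries left out). Leaving out each library gave 1 to 5 calls in BALB H3K27ac, 0 to 1 in BALB Pol II, 0 to 13, 0 to 14, 0 to 8 and 0 to 2 in H3K4me2 in BALB, C57, NOD and SPRET, 0 to 3 in PWK H3K27ac (3 without the second basal library), 0 to 1 in PWK Pol II, 0 to 3, 0 to 4 and 0 to 2 in time-course H3K27ac at 1 h, 6 h and 24 h, 0 to 1 in time-course Pol II at 24 h, 0 to 1 in EGR2 at 1 h, and 0 to 1 in LyzMCreEgr2flfl H3K27ac and in Egr2flfl STAT6. Past the fold rule it gave 4 to 11 in BALB Pol II, 2 to 6 and 1 to 4 in NOD H3K27ac and Pol II, 1 to 12 and 3 to 5 in PWK, 5 to 8 in SPRET H3K27ac and 1 to 3 in time-course Pol II. The PWK H3K27ac count was 12 without the first IL-4 library and 1 without the second. Count tests were not run for the EGR2 time course and the H3K27ac of the Egr2 design. Values of a few tags rest on few reads in the shallower libraries, which limits their precision.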
